A study of Mus musculus with 14 samples.

Results

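Arginine feeds several competing pathways, and the 8 genes described here code for enzymes and transporters that use it, make it or move it, or that act on its product ornithine: Nos2, Odc1, Oat, Ass1, Asl, Slc7a1, Slc7a2 and Slc7a7. They are 8 of the 19096 genes named on the array, and 10 of its 41174 mouse probes measured them, with 2 probes each for Odc1 and Slc7a1. A probe was given to a gene through the RefSeq accession that the scanner files list for it. The genes come from a list that was selected on measured values of these same 14 arrays. Their levels and differences are therefore a description, no p-value of a member is given, and counts of called members are printed only beside those of all probes.

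The nitric oxide synthases use arginine to make nitric oxide and citrulline, and citrulline is turned back into arginine by argininosuccinate synthase (Ass1) and argininosuccinate lyase (Asl). Ornithine, which is made from arginine too, is the starting point of polyamines, which dividing gut epithelium uses in large amounts, and of proline and glutamate. In the gut, inducible nitric oxide synthase (Nos2) is best known from inflamed tissue.

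Total RNA of the colon was measured in 14 male C57BL/6 mice on a chow diet, each on its own array scanned in a single color. All mice had been adrenalectomized (ADX), which removes the main source of the body's own glucocorticoids, at 6 to 8 weeks of age by the labels, which put harvest 2 weeks later at 8 to 10 weeks; the methods give an older age at surgery. Flox mice carry the GR fl/fl alleles, with the glucocorticoid receptor (GR, gene Nr3c1) intact. GR iKO mice carry the same alleles with Villin-cre, which deletes them in the intestinal epithelium, so that other cells of the colon wall keep the receptor. Dexamethasone (DEX), a synthetic glucocorticoid, was given at 1 mg/kg and PBS was the vehicle, and the colon was taken 6 hours after the injection. The groups were Flox PBS (n = 4), Flox DEX (n = 3), GR iKO PBS (n = 3) and GR iKO DEX (n = 4). The treatment text of the labels names DEX for every mouse, so groups were taken from the sample titles.

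Values are log2 signals relative to the 75th percentile of the mouse's own array, so a difference of 1 is 2-fold. That percentile lay between 566.2 and 774.1 intensity units. Each array had at least 28259 and at most 30498 probes well above background. Each group sat on a separate slide with a separate scan run, and the effects of slide, scan and group cannot be told apart. The number of arrays limits the precision of every difference. A probe was called changed at an adjusted p under 0.05 and at least 2-fold, by limma over all probes.

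The receptor gene was checked first, since it bears on the labels. Nr3c1 by its brightest probe averaged 1.40 ± 0.09 (SD, n = 4) in Flox PBS, 1.20 ± 0.12 (n = 3) in Flox DEX, 0.50 ± 0.26 (n = 3) in GR iKO PBS and -0.05 ± 0.08 (n = 4) in GR iKO DEX. It was lower in GR iKO than in Flox colon under DEX by the call rule (log2 difference -1.24, limma adjusted p = 0.00319), with no overlap of the groups. Under PBS the difference was -0.90 (adjusted p = 0.0162), short of 2-fold, and the groups did not overlap either. The call under DEX was lost with another background correction (normexp, -0.98, adjusted p = 0.105), with the test named in the methods after adjustment (-1.24, 0.0961), with the mean of all Nr3c1 probes (-0.99, 0.0545) and without 5 arrays with pancreas signal (-1.39, 0.108). Of the 3 dimmer probes, a pair was called under DEX (-1.10 and -1.27), the latter also under PBS (-1.14, adjusted p = 0.0183), and the other overlapped under DEX at -0.35 (adjusted p = 0.777). On that other probe GR iKO DEX 2 was at -2.54 and the remaining GR iKO DEX mice between -5.18 and -4.71, against -4.19 to -3.63 in Flox DEX. Under PBS it gave -1.07 (limma adjusted p = 0.636) without overlap. Where each probe lies relative to the deleted part of the gene is not known. All 8 epithelial markers, among them the keratin gene Krt8, were well above background on all 14 arrays, and their summed level ranged only 1.18-fold between the lowest and the highest array.

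DEX against PBS in Flox mice asks how the colon with an intact receptor responds to the hormone, and the same comparison in GR iKO mice asks what is left of it without the receptor in the epithelium. The genotypes were also compared within each treatment, and the GR iKO response minus the Flox response gave the difference of responses. By the call rule, 0 of the 8 members were called for DEX in Flox mice, where 1.57 percent of all probes tested were, and 0 for DEX in GR iKO mice (5.01 percent of all probes). The counts were 0 also for genotype under PBS (0.134 percent), genotype under DEX (0.16 percent) and the difference of responses (0.221 percent). At an unadjusted p under 0.05 in limma, 0, 2, 1, 2 and 1 members passed in these 5 comparisons, as did 7823, 11397, 3207, 5612 and 4977 of all 41174 probes. The members counted include Nos2, which was well above background on 1 of the 14 arrays. Since the same values also chose the members, nothing is read from these counts.

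Groups that did not overlap were found for 0, 1, 0 and 3 members by their brightest probe in the 4 comparisons of groups, where 20.2, 25.6, 6.87 and 14.5 percent of all probes did not overlap. Slc7a2 is among the 3 under DEX, and its separation there rests on GR iKO DEX values that are all below background. The median difference of the 8 members was -0.02, -0.03, -0.04, -0.17 and -0.15 in the 5 comparisons, against 0.06, 0.09, 0.00, 0.04 and 0.02 over all probes. In bulk tissue such as this, fewer cells of a type and less RNA per cell cannot be told apart.

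**Figure D1:**
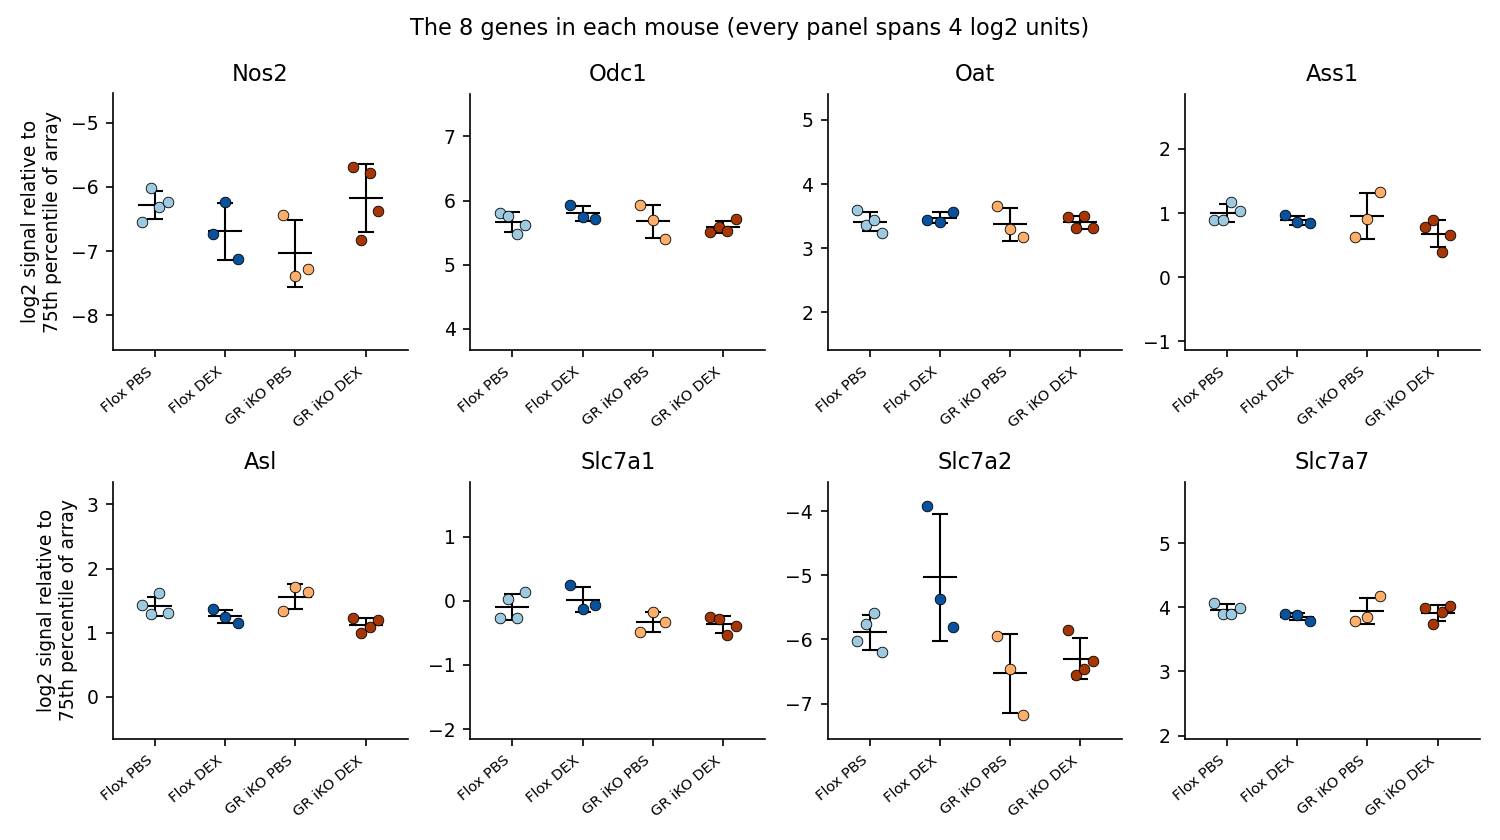
The 8 genes by their brightest probe in each mouse, as log2 signal after subtraction of the array's own 75th percentile; points are mice, bars are the group mean and SD, and every panel spans 4 log2 units. Slc7a2 ranges over 3.26 units across the 14 mice and Slc7a7 over 0.44.

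Nos2, the inducible nitric oxide synthase, was hardly measurable in these colons. Its probe is printed in 10 spots, and it was well above background on 1 of the 14 arrays, GR iKO DEX 1, at a log2 signal of -5.69. On the other arrays it lay between -7.39 and -5.78, so no fold change is given. In the deposited table Nos2 stands out on Flox DEX 2, at 7.03 against 2.27 to 3.67 on the other arrays. That value traces to 1 of the 10 spots, which carries the scanner's outlier flag with a log2 intensity of 10.01, while the other spots on that array lie between 1.63 and 4.40. With the spot left out, Flox DEX 2 was at -6.23 relative to the percentile, inside the range of the other arrays.

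Odc1 and Oat use ornithine. Odc1, ornithine decarboxylase, makes the first polyamine, and its brightest probe was steady at group means of 5.67 ± 0.15 in Flox PBS (n = 4), 5.80 ± 0.12 in Flox DEX (n = 3), 5.68 ± 0.26 in GR iKO PBS (n = 3) and 5.58 ± 0.09 in GR iKO DEX (n = 4). The highest GR iKO DEX mouse, at 5.713, was just below the lowest Flox DEX mouse, at 5.714, for a log2 difference of -0.22 ± 0.13 that came to 0.01 with normexp. The dimmer probe showed the same order by a wider margin: 0.99 to 1.34 in GR iKO DEX mice against 1.56 to 1.75 in Flox DEX mice, a difference of -0.48 ± 0.13. By this probe the difference of responses was -0.62 ± 0.19, from 0.21 ± 0.13 in Flox and -0.41 ± 0.13 in GR iKO colon, and by the brighter probe it was -0.23 ± 0.18. The brighter probe's value came to -0.03 with normexp and to -0.10 without GR iKO PBS 2. Without that mouse the dimmer probe gave -0.26 in GR iKO colon and -0.47 for the difference of responses. With normexp the dimmer probe gave 0.05 in Flox colon.

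Oat, ornithine aminotransferase, leads ornithine towards glutamate and proline and back. It was flat, with group means from 3.37 ± 0.25 (GR iKO PBS, n = 3) to 3.47 ± 0.09 (Flox DEX, n = 3), and none of its 5 differences exceeded its SE.

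Ass1 and Asl, the enzymes that rebuild arginine from citrulline, were well above background in every mouse. Ass1 averaged 1.00 ± 0.14 in Flox PBS (n = 4), 0.88 ± 0.07 in Flox DEX (n = 3), 0.95 ± 0.36 in GR iKO PBS (n = 3) and 0.68 ± 0.21 in GR iKO DEX (n = 4), and all groups compared overlapped. Asl was 1.34, 1.71 and 1.63 in GR iKO PBS mice 2, 3 and 4, and 1.22, 0.99, 1.09 and 1.20 in GR iKO DEX mice 1 to 4. These groups did not overlap, and Asl was 0.43 ± 0.12 lower on the log2 scale with DEX, or 1.35-fold. In Flox mice the Asl difference was -0.16 ± 0.12 with overlapping groups, and the difference of responses was -0.28 ± 0.17. The latter came to -0.12 with normexp and to -0.11 without the 5 arrays with a pancreas sum over 100, as the difference in Flox mice came to -0.27 and -0.29.

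The Asl probe is printed in the last of 3 equal parts of the array's rows, and in that part 10.9 percent of probes were called for DEX against PBS in GR iKO mice, against 1.99 and 2.21 percent in the first and the middle part. Of the 1477 probes called there, 1395 were higher with DEX. The part of this region in the Asl difference was not tested. The brightest Slc7a1 probe and the Slc7a2 probe are printed in that part too. In Flox mice the shares of called probes were 1.38, 1.82 and 1.45 percent from the first to the last part. For genotype under PBS 3, 25 and 26 probes were called in these parts, of which 2, 24 and 0 were higher in GR iKO mice. Under DEX 20, 21 and 25 were called, with 4, 13 and 19 higher. For the difference of responses 14, 12 and 64 were called, with 7, 7 and 60 higher. The part of this region in those differences was not tested either.

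The transporters carry arginine across the cell membrane. Slc7a1, the widely expressed cationic amino acid transporter, was -0.09 ± 0.21 in Flox PBS (n = 4), 0.02 ± 0.20 in Flox DEX (n = 3), -0.33 ± 0.15 in GR iKO PBS (n = 3) and -0.36 ± 0.13 in GR iKO DEX (n = 4) by its brightest probe. Under DEX the genotypes did not overlap, with GR iKO lower by 1.30-fold (-0.38 ± 0.14). The dimmer probe gave -0.49 ± 0.21 for the same difference, with overlapping groups, and -0.75 with normexp and -0.998 without the arrays with pancreas signal, and under PBS the probes gave -0.24 ± 0.14 and -0.08 ± 0.21.

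Slc7a2, the cationic amino acid transporter that is inducible in macrophages and liver, was dim. It was well above background in 5 mice, all of them Flox: 2 of 4 Flox PBS mice and all 3 Flox DEX mice. Its log2 signal in Flox DEX mice 1, 2 and 4 was -3.92, -5.37 and -5.81, and in GR iKO DEX mice 1 to 4 it was -5.85, -6.56, -6.46 and -6.34. The printed values did not overlap, by a narrow margin at mouse 4 of Flox DEX, but no GR iKO DEX mouse was above background. The background limit of an array is taken here as the lowest signal among its probes well above background. Flox DEX 4 lay below the background limits of GR iKO DEX 2, 3 and 4, so its order against them cannot be read. With the GR iKO DEX mice put at the background limit of their arrays, Flox DEX was 1.57-fold higher. This is not a strict lower bound, since probes not well above background can lie over that limit. Slc7a2 did so on GR iKO PBS 2, at -5.95 with a limit of -6.13. Flox DEX 1, the highest mouse, carries much of the 1.57-fold, and without it the value was 1.07-fold. The log2 difference between DEX and PBS in Flox mice, where 2 of 4 PBS mice were above background, was 0.86 ± 0.40 with that mouse and 0.30 without it. Flox DEX 1 and 2 are also the arrays with the highest summed levels of exocrine pancreas genes (1429 and 1649 times the 75th percentile). Flox DEX 4, with a sum of 22.3, lay below the mean background limit of the GR iKO DEX arrays, -5.68. Without the 5 arrays with a pancreas sum over 100 the Slc7a2 difference for DEX in Flox mice was 0.13, and the part of pancreas tissue in it was not tested.

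Slc7a7, the light chain of the exporter that passes cationic amino acids to the blood side of the epithelium, was among the steadiest members. Its group means lay between 3.85 ± 0.06 (Flox DEX, n = 3) and 3.96 ± 0.08 (Flox PBS, n = 4), and none of its 5 differences exceeded 0.11 in size. With normexp they reached -0.29 for DEX in Flox mice and 0.19 for genotype under DEX. The difference of responses came to 0.20 without GR iKO PBS 4 and to 0.21 without the arrays with pancreas signal.

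**Figure D2:**
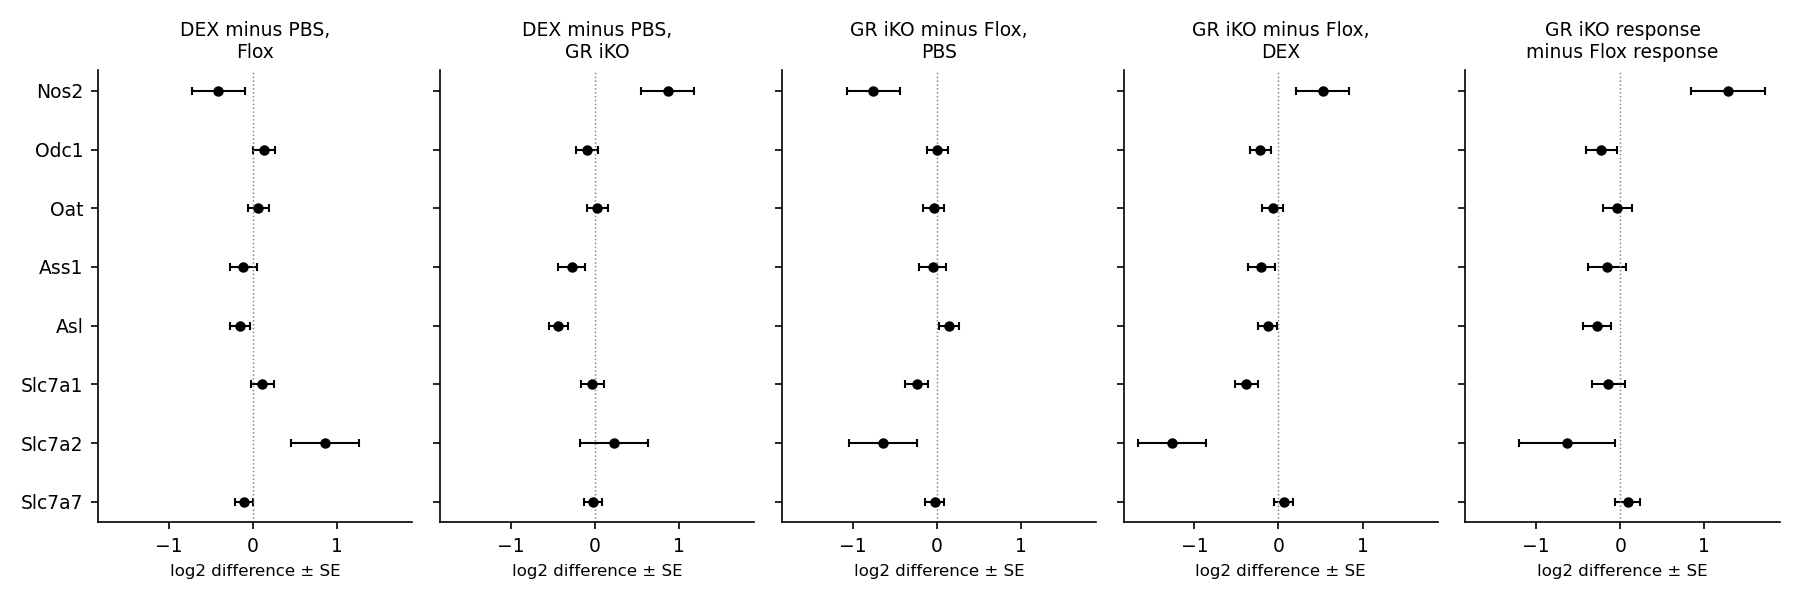
Log2 differences of the 8 genes by their brightest probe in the 5 comparisons, with SE bars; positive values are higher in the first group named in each panel title. Nos2 and Slc7a2 have whole groups below background, so no fold is read from their points there. Among Odc1, Oat, Ass1, Asl, Slc7a1 and Slc7a7 the largest in size is the -0.43 of Asl.

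Genes that share these pathways were taken from 6 lists, 70 genes on the array in all, which the member rule did not name. For DEX against PBS in Flox mice 1 of the 70 was called, where 1.57 percent of all probes were: Prodh, proline dehydrogenase, the mitochondrial enzyme that starts the breakdown of proline. Its log2 signal was 1.02, 0.81, 0.72 and 0.97 in Flox PBS mice 1 to 4, and 2.40, 2.33 and 1.97 in Flox DEX mice 1, 2 and 4. In GR iKO mice it was 1.47, 1.17 and 0.85 in mice 2, 3 and 4 given PBS, and 0.70, 1.03, 0.89 and 0.93 in mice 1 to 4 given DEX. Every Flox DEX mouse was therefore above every mouse of the other groups. The count of called list genes was 3 without Flox DEX 4, and 2 without Flox PBS 1, 2 or 3, Flox DEX 2, GR iKO PBS 2 or 3, or GR iKO DEX 1, with Prodh in each.

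With DEX, Prodh rose in the Flox group by 1.35 ± 0.16 (log2, SE; limma adjusted p = 0.00203), or 2.56-fold, and was higher in 3 of 3 treated mice than in any of the 4 given PBS. In GR iKO mice the difference was -0.28 ± 0.16 (adjusted p = 0.279). Under DEX the GR iKO level of Prodh minus the Flox level was -1.35 ± 0.16 (adjusted p = 0.00662), and the responses themselves differed by -1.63 ± 0.22 (adjusted p = 0.019). Prodh was the only list gene called in the latter pair of comparisons. Prodh was called in 11 of 13 other settings for DEX in Flox mice, 9 of 13 for genotype under DEX and 7 of 10 for the difference of responses, and in all 14 fits without a single array each time. The settings that lost the difference of responses include the replicate number as a block (-1.63, limma adjusted p = 0.0501) and normexp (-1.49, limma adjusted p = 0.154). Under DEX the count was 3 without Flox DEX 4 and 2 without Flox PBS 1, and for the difference of responses it was 3 without Flox DEX 4 and 2 without Flox PBS 2. Under PBS none of the 70 was called by limma, with 7 at an unadjusted p under 0.05, and 1 was called without Flox PBS 2 or without GR iKO PBS 4. Of all 19096 named genes, 1475 passed that unadjusted p for genotype under PBS.

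For DEX against PBS in GR iKO mice 2 of the 70 were called, where 5.01 percent of all probes were, both higher: Agmat, which codes for agmatinase, named for splitting agmatine, the decarboxylation product of arginine, and Padi1, a peptidyl arginine deiminase that turns arginine within proteins into citrulline. Agmat was higher by 1.31 ± 0.23 (adjusted p = 0.00535) and Padi1 by 1.37 ± 0.22 (adjusted p = 0.00436), each in 4 of 4 treated mice against all 3 given PBS. In Flox mice the differences were 0.23 ± 0.23 (adjusted p = 0.639) for Agmat and 0.31 ± 0.22 (adjusted p = 0.509) for Padi1, where Flox DEX 4 was at -1.76 and Flox DEX 1 and 2 at -0.85 and -0.71. The responses of the genotypes were not shown to differ, at 1.08 ± 0.32 (adjusted p = 0.18) for Agmat and 1.07 ± 0.32 (adjusted p = 0.186) for Padi1. GR iKO PBS had the lowest group mean of both genes. Agmat averaged -1.51 there, against -0.61 in Flox PBS, -0.38 in Flox DEX and -0.20 in GR iKO DEX. Padi1 averaged -2.03, against -1.41, -1.11 and -0.65. Under PBS the genotypes differed by -0.90 for Agmat (limma adjusted p = 0.196), with overlap, and by -0.62 for Padi1 (limma adjusted p = 0.462), without overlap. Agmat depends here on Flox PBS 2, at -1.34 against -0.45 to -0.26 in the other Flox PBS mice: without it Agmat was called for the difference of responses and for genotype under PBS. Both probes are printed in the last part of the array's rows. There 10.9 percent of probes were called for DEX against PBS in GR iKO mice. The part of that region in both results was not tested. With normexp neither was called, at 1.18 (adjusted p = 0.0508) for Agmat and 1.18 (adjusted p = 0.0914) for Padi1. These were the highest adjusted p of both genes over the alternatives that held their probes. Without GR iKO PBS 2, 7 of the 70 were called, Agmat and Padi1 among them.

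**Figure D3:**
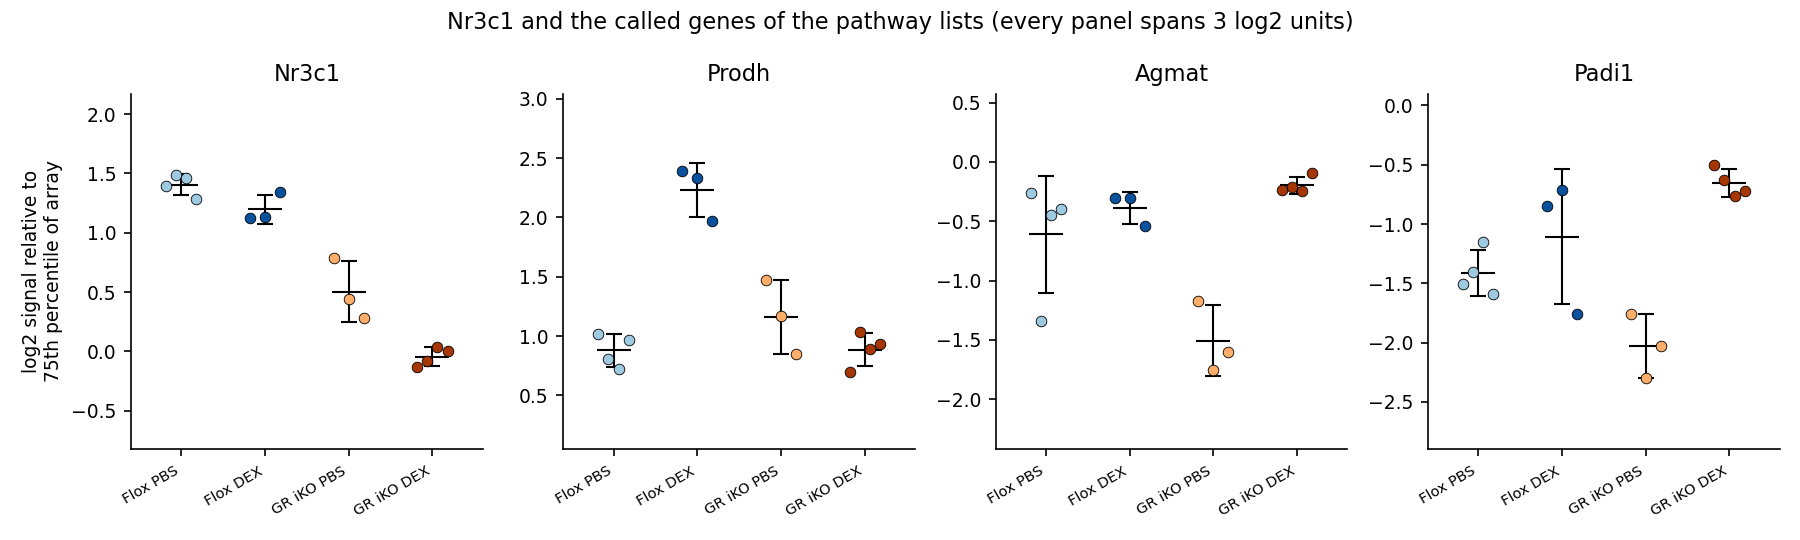
Nr3c1 and the called genes of the pathway lists in each mouse, as log2 signal after subtraction of the array's own 75th percentile; points are mice, bars are the group mean and SD, and every panel spans 3 log2 units. Prodh lies between 1.97 and 2.40 in Flox DEX mice and between 0.70 and 1.47 in all others.

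By list, for DEX against PBS in Flox mice, 1 of 10 genes of proline, glutamate and glutamine handling was called (Prodh), and 0 of 7 of the urea cycle and citrulline supply, 0 of 17 of polyamines, 0 of 12 around nitric oxide, 0 of 11 of creatine and other arginine users and 0 of 13 amino acid transporters, where limma gave 2, 5, 1, 4 and 7 genes at an unadjusted p under 0.05. The median differences of the 6 lists in the order just named were 0.07, 0.13, 0.08, -0.19, 0.23 and 0.24, against 0.06 over all probes. In the GR iKO mice 2 of 11 of creatine and other arginine users were called (Agmat, Padi1) and none of the other lists, with 2, 1, 3, 4 and 4 genes at an unadjusted p under 0.05 in the lists of proline, urea cycle, polyamines, nitric oxide and transporters. Of all 19096 named genes by their brightest probe, 4123 passed that unadjusted p for DEX in Flox mice and 5454 for DEX in GR iKO mice.

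In the polyamine list 3 of 17 genes passed the adjusted p for DEX in Flox mice but not the 2-fold minimum. Of all 41173 probes tested, 1304 passed that p at any fold. The genes are named after their values were seen. Azin1, the antizyme inhibitor that protects ornithine decarboxylase from degradation, was at 0.94 ± 0.17 (adjusted p = 0.016). Smox, spermine oxidase, was at 0.65 ± 0.15 (adjusted p = 0.0372), and Sat2, a member of the acetyltransferase family named for spermidine and spermine, at -0.48 ± 0.11 (adjusted p = 0.0428). For DEX in GR iKO mice Srm and Atp13a3 of the list passed that p below 2-fold, where 4808 of all 41174 probes passed it. The differences of responses for the list gave no call.

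Tissue of other organs can enter a colon sample, and 8 genes of exocrine pancreas were summed on each array to look for it. The sum, in multiples of the 75th percentile, was 21.7, 512.3, 34.4 and 28.7 in Flox PBS mice 1 to 4, and 1429, 1649 and 22.3 in Flox DEX mice 1, 2 and 4. It was 11.5, 23.3 and 22.9 in GR iKO PBS mice 2, 3 and 4, and 38.2, 176.5, 54.2 and 117.4 in GR iKO DEX mice 1 to 4. The gene with the highest signal, averaged over the arrays, was Clps, colipase, and 5 of the 8 genes were above background on all arrays. Pancreas signal was thus high on 2 of 3 Flox DEX arrays, the group with high Prodh.

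On the single arrays, Flox DEX 4 had a pancreas sum of 22.3 and a Prodh signal of 1.97, and Flox PBS 2 had a sum of 512.3 and a Prodh signal of 0.81. The part of pancreas tissue in the Prodh result was not tested. With the 5 arrays above a sum of 100 left out, a choice made after seeing the data, Flox DEX is left with 1 array, which is then assumed to vary like the others. Prodh was then at 1.07 for DEX in Flox mice (adjusted p = 0.234), -1.18 for genotype under DEX (adjusted p = 0.202) and -1.44 for the difference of responses (adjusted p = 0.173), and was called in none of them. These are the highest adjusted p of Prodh over its alternatives, and the lowest for the difference of responses was 0.00969.

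**Figure D4:**
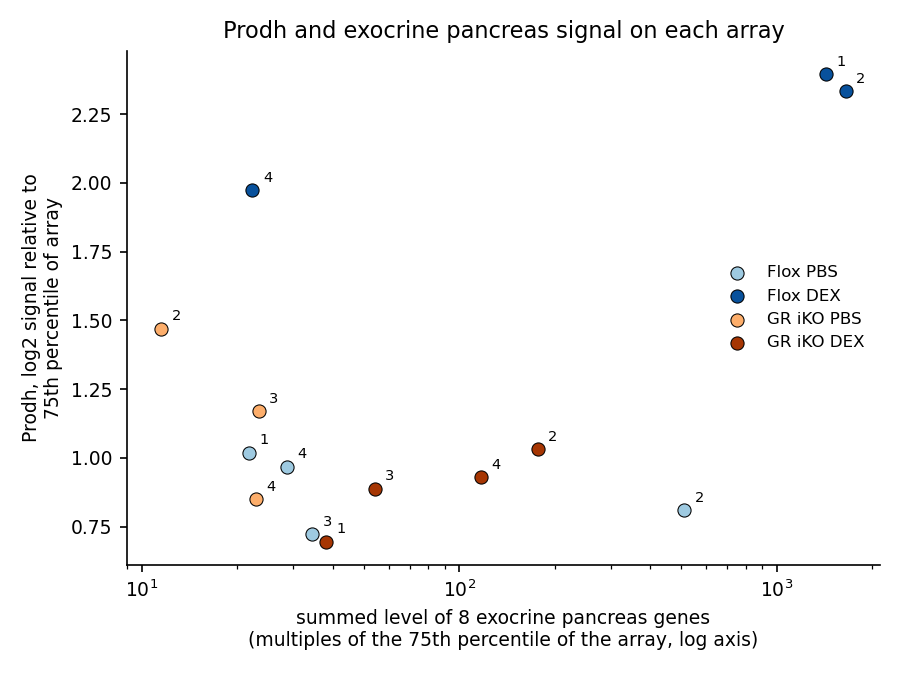
Prodh (log2 signal less the array's own 75th percentile) against the summed level of 8 exocrine pancreas genes (multiples of the same percentile, log axis) on each of the 14 arrays, colored by group and numbered by replicate. Flox DEX 4 sits at a sum of 22.3 and the other Flox DEX arrays at 1429 and 1649, and Flox PBS 2 sits at 512.3.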

How the data were processed

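Colon RNA of 14 mice was measured on Agilent whole mouse genome arrays. The scanner files deposited by the authors, made with Agilent Feature Extraction, hold processed signals in intensity units, background-subtracted within each array. The log2 table deposited by the authors, made with Feature Extraction and Partek 6.6, was checked and found quantile normalized (99.9 percent of its values within 0.05 of quantile normalized scanner values), and 14 of 14 of its columns correlated best with their own array.

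Spots flagged as outliers by the scanner software were dropped, log2 intensities of repeated spots were averaged per probe, and each array was scaled by subtracting its 75th percentile. A single limma fit of the 4 groups (limma 3.58.1, R 4.3.3) gave 5 comparisons, with Benjamini-Hochberg adjustment over all probes; calls needed an adjusted p under 0.05 and at least 2-fold. The test was tried on simulated data. A gene is shown by its brightest probe unless stated. A probe counts as well above background where at least 50 percent of its unflagged spots do. Data were prepared and drawn with Python 3.11.15, pandas 2.3.3 and matplotlib 3.10.9.

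The members and all lists were chosen with earlier results of these data known. Some genes of the list are not reported here. Named are the 8 members, the called genes of the pathway lists, Nr3c1, and the gene of highest mean signal in each cell type list; other genes are named after their values were seen. Cell type lists were epithelium, macrophages, neutrophils, T cells, B or plasma cells, small intestine, exocrine pancreas, liver, smooth muscle, stromal fibroblasts and endothelium. Alternatives were another background correction, quantile normalization, the deposited table, a filter on dim probes, outlier spots kept, separate fits, the t-test of the methods, no fold minimum, a replicate block, arrays left out, gene means and part of the array left out. Replicate numbers were not taken as pairs in the main fit. Residuals of arrays with the same number correlated at -0.107 to 0.182 (18 pairs, median 0.054). With other numbers they correlated at -0.241 to 0.153 (55 pairs, median -0.0098). The same-number pairs thus leaned higher, and 6 arrays correlated best with an array of their own number. Whether this lean exceeds chance was not tested. Genome positions are not given, since the array design and the annotation use different builds.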

Additional observations from a re-analysis of the deposited data

Results flagged for a closer look

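In the groups of 4 mice, 4 of 54 values tested had a single array far from the other 3, where chance gives about 1 in 20. The dimmer Slc7a1 probe on Flox PBS 1 was at -3.41, with the others between -3.81 and -3.78, a small gap in a tight group. The exocrine pancreas sum on Flox PBS 2 was 512.3 against 21.7 to 34.4 on the others. The smooth muscle sum on GR iKO DEX 1 was 375.4 against 574.6 to 595.8. On Flox PBS 1, 28344 probes were well above background, against 29865 to 30021 on the other Flox PBS arrays.

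The response of Prodh to DEX differed between the genotypes by -1.63 on the log2 scale in the test of the difference itself (limma adjusted p = 0.019). The call was made in 7 of 10 other settings. It was lost with normexp (-1.49, adjusted p = 0.154), with the replicate block (-1.63, adjusted p = 0.0501) and without the 5 arrays with pancreas signal (-1.44, adjusted p = 0.173), which include 2 of 3 Flox DEX arrays.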

How the results depend on the processing

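The comparisons are numbered here as 1 (DEX in Flox mice), 2 (DEX in GR iKO mice), 3 (genotype under PBS), 4 (genotype under DEX) and 5 (difference of responses). Prodh kept its direction under each other setting in comparisons 1, 4 and 5. It lost its call with normexp in 4 (-1.18, adjusted p = 0.0611) and 5 (-1.49, adjusted p = 0.154), with separate fits in 4 (-1.35, adjusted p = 0.0504), and with the adjusted t-test of the methods in 1 (1.35, adjusted p = 0.0545) and 4 (-1.35, adjusted p = 0.119). With normexp the median difference over all probes was 0.56, 0.18, -0.10, -0.45 and -0.36, where the main values gave 0.06, 0.09, 0.00, 0.04 and 0.02, and the signs of some differences of Nos2, Odc1, Oat, Slc7a1 and Slc7a7 changed with it. Of 1165 values of the members, 28 moved by more than 1 SD. The cause of the changes below was not tested.

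Called probes numbered 58, 45, 2, 6 and 5 with normexp, with 0 pathway genes in comparisons 2, 4 and 5. The difference of responses had 58 called probes with quantile normalization, 56 in the deposited table and 166 with dim probes left out. Leaving out dim probes gave 3 pathway genes for DEX in Flox mice and 2 for genotype under DEX. Separate fits gave 2 and 0 pathway genes there, and 17 and 18 called probes between genotypes under PBS and DEX. The t-test of the methods at an unadjusted p gave 1467, 703 and 658 probes in comparisons 1, 3 and 4, and 6 and 2 pathway genes in 1 and 4; adjusted, it gave 0, 705, 0 and 0 probes in 1 to 4, and 0 pathway genes in 1 and 4. Without a fold minimum 1304, 4808 and 117 probes were called in 1, 2 and 4, with 4 and 11 pathway genes in 1 and 2, and 1 member in comparison 2. With gene means, 31 of 32046 genes or single unnamed probes were called for genotype under PBS.

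With the replicate number as a replicate block, 398, 24, 26 and 40 probes were called in comparisons 1, 3, 4 and 5, and 0 pathway genes in 5, where Prodh was at -1.63 (adjusted p = 0.0501).

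Without the last of 3 parts of the array's rows, 418, 21, 39 and 7 probes were called in comparisons 2 to 5, with 0 pathway genes in 2. The Agmat and Padi1 probes lie in the part left out, so they could not be called there. Without the 5 arrays with exocrine pancreas signal, an alternative chosen after seeing the data, 31, 778 and 204 probes were called in comparisons 1, 2 and 5, with 0 pathway genes in 1, 4 and 5 and Prodh at 1.07 (adjusted p = 0.234), -1.18 (adjusted p = 0.202) and -1.44 (adjusted p = 0.173); Flox DEX then has 1 array.

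Leaving out each array in turn gave 215 to 840, 1436 to 2365, 22 to 183, 18 to 141 and 36 to 212 called probes in the 5 comparisons, and 1 to 3, 2 to 7, 0 to 1, 1 to 3 and 1 to 3 pathway genes. Members called were 0 to 1 in comparison 2, the latter being Nos2 without GR iKO PBS 2, a gene with whole groups below background. The same values chose the members, so nothing is read from their calls. Signal over background limits Nos2 and Slc7a2, and below background no difference can be read.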

Other observations

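The cell type lists hold 69 genes on the array. Of all probes tested, 1.57 percent were called for DEX in Flox mice and 5.01 percent for DEX in GR iKO mice. For DEX against PBS in Flox mice 2 were called: Lct, the lactase of the small intestine brush border, rose by 3.83 (adjusted p = 0.00371), with 3 of 4 PBS mice above background, and Kdr, a VEGF receptor of endothelium, fell by 1.00 on the log2 scale (adjusted p = 0.00927). Both were called in GR iKO mice as well, Lct at 4.29 (adjusted p = 0.0013) with 1 of 3 PBS mice above background, and Kdr at -1.05 (adjusted p = 0.0034).

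In GR iKO mice 7 more were called with DEX. The neutrophil genes S100a9 (-2.67, limma adjusted p = 0.0491) and Csf3r (limma adjusted p = 0.0297) fell. For Csf3r no DEX mouse and 2 of 3 PBS mice were above background. It was 1.14-fold lower with DEX mice put no lower than the background limit, which is not a strict bound. The T cell genes Cd3g (-1.17) and Cd8a (-1.81) and the endothelial gene Tek (-1.23) fell too. The macrophage scavenger receptor Cd163 (1.26) and the liver gene Apoh (1.15) rose. S100a9 was at -0.37 in GR iKO PBS 2, at -2.58 and -3.07 in GR iKO PBS 3 and 4, and between -5.60 and -3.45 with DEX. In Flox mice the means went the same way without a call, S100a9 from -1.67 to -3.94, Cd3g from -3.77 to -4.64 and Cd8a from -4.33 to -5.42. Tek went from -2.92 to -3.90, Cd163 from -1.36 to -0.36 and Apoh from -4.03 to -3.85 there. Csf3r was above background in 3 of 4 Flox PBS mice and no Flox DEX mouse. Genes of the same lists also moved the other way without a call, and are named after their values were seen: with DEX in GR iKO mice the mean of Mpo went from -4.11 to -2.93, of Cd3e from -3.27 to -2.41, of Cd4 from -3.92 to -3.63 and of Esam from -1.24 to -0.86, and the means of all 5 other macrophage genes, Adgre1, Cd68, Csf1r, Cd14 and Mrc1, were lower. So were those of the liver genes Alb (-3.09 to -3.89), Ttr (-3.14 to -4.05) and Fgb (-5.18 to -5.32), and of the small intestine genes Sis (-2.33 to -2.94) and Fabp6, which was above background in no DEX mouse of either genotype and in every PBS mouse. By list, 2 of 5 neutrophil, 2 of 5 T cell, 2 of 6 endothelium, 1 of 6 macrophage, 1 of 5 liver and 1 of 8 small intestine genes were called there. No gene of the epithelium, B or plasma cell, exocrine pancreas, smooth muscle or stromal fibroblast lists was called in either genotype, with 1, 1, 2, 6 and 3 genes at an unadjusted p under 0.05 in Flox mice and 2, 3, 1, 1 and 2 in GR iKO mice. Between the genotypes none of the 69 was called by limma under PBS, under DEX or for the difference of responses, with 8, 6 and 5 at an unadjusted p under 0.05. Of all 19096 named genes, 1475, 2885 and 2420 passed that unadjusted p in the comparisons just named. For DEX in Flox and in GR iKO mice 4123 and 5454 did.

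Some lists leaned to 1 side below the call rule, and no list was tested as a set. All 6 smooth muscle genes were higher with DEX in Flox mice, by a median of 0.62 on the log2 scale, with sums of 347.5 to 414.4 under PBS and 502.7 to 643.4 under DEX. In GR iKO mice the median was 0.21, with sums of 411.2 to 491.2 under PBS and, under DEX, 375.4 in mouse 1 and 574.6 to 595.8 in the others. All 6 stromal fibroblast genes were lower with DEX in Flox mice, by a median of 0.58, with overlapping sums, and by 0.31 in GR iKO mice. The sums in GR iKO mice were 83.86 to 96.14 under PBS and 69.97 to 83.77 under DEX, without overlap by a narrow margin. Endothelium sums were 3.80 to 5.01 in Flox PBS and 3.13 to 3.50 in Flox DEX, and overlapped in GR iKO mice. Between genotypes, T cell sums were 0.558 to 0.875 in GR iKO PBS and 0.337 to 0.554 in Flox PBS, apart by a narrow margin. Under DEX they were 0.494 to 0.552 and 0.349 to 0.440. The median genotype difference was 0.76 under PBS and 0.40 under DEX for T cell genes, and 1.01 and 0.52 for B or plasma cell genes. B or plasma cell sums overlapped under PBS and not under DEX. The part of this in the results on arginine genes was not tested.

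The gene of each list with the highest signal, averaged over all 14 arrays, was Krt8, Cd14, S100a9, Cd3d, Jchain, Fabp2, Clps, Tat, Cnn1, Dcn and Vwf, in the order epithelium, macrophages, neutrophils, T cells, B or plasma cells, small intestine, exocrine pancreas, liver, smooth muscle, stromal fibroblasts and endothelium. Signals of different probes do not measure abundance, and the order changed between groups: Mpo was above S100a9 and Cd3e above Cd3d in both DEX groups, and Cela1 above Clps in GR iKO PBS. Elane of the neutrophil list was not above background on any array. Macrophage sums averaged 9.83 ± 1.79 in Flox PBS, 6.81 ± 0.66 in Flox DEX, 9.14 ± 1.25 in GR iKO PBS and 7.46 ± 0.81 in GR iKO DEX.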
